A study of Mus musculus with 3 samples.

Results

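Chromatin modifier and remodeller genes were examined in a sorted population of mouse bone marrow cells, as 97 of the 11419 genes listed in the deposited tables. A gene was a member when its symbol began with Kdm, Kat, Hdac, Chd, Arid, Brd, Ezh, Tet or Dnmt followed by a digit, or with Kmt2, Kmt5, Setd or Smarc, with Kdm5d left out and each gene counted once. No expression value entered that rule. By known function or gene family the members comprised 32 writers, 29 erasers, 7 readers, 23 remodellers and 6 ARID proteins. The last are DNA-binding proteins with an ARID domain outside the remodelling complexes. Writers here include Kmt2e, Setd3 and Dnmt3l, which are described below with no known or another activity. The names Setdmar, Dnmt3c, Hdac11, Kdm4d, Chd5, Smarcd3, Smarca1 and Arid3c, 8 relatives in the same families, were not listed, so their levels are unknown.

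Writers place methyl or acetyl groups on histone tails or methyl groups on DNA, erasers remove or oxidise them, and readers carry domains such as the bromodomain that bind the marked residues. Remodellers use ATP to slide, evict or exchange nucleosomes, and most work as large complexes in which related subunits replace each other. In marrow these proteins are known for setting which lineage genes can be switched on as progenitors become granulocytes, monocytes or macrophages, and several are recurrently mutated in myeloid malignancies.

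All 3 libraries came from 1 group, cells of C57BL/6 mice sorted from tibiae and femurs as CD11b+ F4/80+ CD169+ CX3CR1neg. The labels give no genotype, age, treatment or second population, nor how many mice stood behind the libraries, so the p-values rest on library-to-library spread alone, part of which may be technical. Levels are in CPM, a gene's reads per 1000000 reads that were assigned to listed genes. The totals were 5150020, 40149274 and 37604930 reads in replicates 1, 2 and 3, so 10 CPM stood for 51.5, 401 and 376 reads, and a gene with 0 reads could still be at up to 0.583, 0.0747 or 0.0798 CPM (3 reads). Replicate 1 thus stood apart by its depth, and it is given separately wherever members differed in it.

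The labels call the cells macrophages, and the most abundant of the marker genes were those of neutrophil granules. Siglec1, which encodes CD169, was at 0.388, 3.66 and 4.57 CPM, and Cx3cr1 at 0, 0.423 and 0 CPM, in replicates 1, 2 and 3, both below 10 CPM. Itgam, which encodes CD11b, averaged 503 ± 55.1 CPM (SD, n = 3) and Adgre1, which encodes F4/80, 22.2 ± 3.97 CPM. All 10 genes of a neutrophil granule list were above 10 CPM, with summed levels of 217959, 217588 and 181491 CPM, or 20.6% of all reads on average. Of 10 genes of a macrophage list, 5 were above and 3 below, with sums of 354, 276 and 336 CPM, or 0.0322% of reads, and per kb 6 were above the median listed gene and 3 below. Over all genes tested 58.8% were above and 28.3% below 10 CPM, and 43.8% were above the median per kb. None of these lists had a gene at 0 in all libraries. The population is therefore called by its gate here. In such bulk RNA a lower level in fewer cells and a lower level per cell cannot be told apart.

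The promoters of 4 members are shown because they stand at both ends of the level range described next. They are the 250 bases before the RefSeq start (GRCm38.p6) of the 2 members of highest and the 2 of lowest level per length whose RefSeq start lies within 50 bases of the GENCODE start, with CpG dinucleotides in capitals. Chd4 lies at chr6:125095731-125095980, forward strand, and Kmt5a at chr5:124439680-124439929, forward strand. Hdac9 lies at chr12:34917096-34917345, reverse strand, and Dnmt3b at chr2:153649199-153649448, forward strand.
Chd4: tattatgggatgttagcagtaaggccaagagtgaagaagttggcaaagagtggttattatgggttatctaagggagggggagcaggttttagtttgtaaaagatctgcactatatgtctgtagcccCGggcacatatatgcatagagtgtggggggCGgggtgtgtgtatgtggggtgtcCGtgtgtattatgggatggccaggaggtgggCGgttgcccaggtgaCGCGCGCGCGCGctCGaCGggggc
Kmt5a: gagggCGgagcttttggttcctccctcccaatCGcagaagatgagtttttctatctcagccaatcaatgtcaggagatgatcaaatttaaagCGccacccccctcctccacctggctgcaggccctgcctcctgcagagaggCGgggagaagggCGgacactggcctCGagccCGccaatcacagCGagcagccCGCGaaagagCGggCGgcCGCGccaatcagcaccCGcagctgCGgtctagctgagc
Hdac9: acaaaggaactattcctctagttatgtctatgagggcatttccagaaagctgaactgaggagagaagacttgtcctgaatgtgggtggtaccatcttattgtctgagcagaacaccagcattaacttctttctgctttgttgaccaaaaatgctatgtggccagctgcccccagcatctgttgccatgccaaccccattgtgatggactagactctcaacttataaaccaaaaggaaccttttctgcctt
Dnmt3b: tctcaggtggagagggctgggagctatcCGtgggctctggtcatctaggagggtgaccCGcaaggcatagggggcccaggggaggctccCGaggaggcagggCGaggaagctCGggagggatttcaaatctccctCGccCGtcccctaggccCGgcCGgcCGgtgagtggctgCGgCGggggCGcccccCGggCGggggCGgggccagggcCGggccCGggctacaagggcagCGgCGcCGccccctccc

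Chd4 and Kmt5a held 12 and 16 CpG in these windows, Hdac9 held 0 and Dnmt3b held 21, so among these 4 the weakly detected genes had both the fewest and the most. Of the 97 members, 75 had a promoter in the table. Their median ratio of observed to expected CpG was 0.798 and their median GC content 61.6%, against 0.745 and 60.0% over the 8870 listed genes with a promoter. The ratio was over 0.6 in 58 member promoters (77.3%), against 69.7% of all listed promoters. The letters describe these windows only, and nothing about methylation was measured.

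Most members were readily detected, and their excess over all listed genes was smaller once gene length was taken into account. A moderated test (limma, two-sided, on log2(CPM + 1)) set each gene against 10 CPM, with Benjamini-Hochberg adjustment over 11123 genes that had at least 10 reads, and a call at an adjusted p under 0.05. A log2 difference from 10 CPM is on that scale, which understates the difference of low genes. All 97 members entered. The test put 82 members (84.5%) above 10 CPM, where 58.8% of all tested genes were above, and 8 members (8.25%) below, where 28.3% of all tested genes were below. The 8 below were Setd6, Setd4, Dnmt3b, Dnmt3l, Tet1, Hdac9, Hdac8 and Kdm8, and the other 7 passed in neither direction. A count test on the reads behind the CPM (edgeR, quasi-likelihood) put 82 members above and 6 below, against 59.9% and 25.1% of the genes tested, and DESeq2 on the same reads 82 above and 7 below, against 60.3% and 28.3%.

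CPM favours long transcripts, and the members were long, with a median exon length of 7.83 kb (all annotated exons of a gene merged) against 4.42 kb over all listed genes. Levels between genes are therefore compared per kb of that length. The exons of 39 members overlap those of another annotated gene, in 6 over more than 10% of the length, and without a stated strand setting such reads cannot be assigned with certainty. In CPM the median member was at 57.6 and the median listed gene at 19.7, above the 10 CPM of the first test. Per length the median member was at 6.46 CPM per kb and the median listed gene at 4.37 CPM per kb. A second limma test set log2(CPM per kb + 0.5) of each gene against the median listed gene of the same library, and per-kb log2 differences are from that median. It put 53 members (54.6%) above that median and 24 (24.7%) below, against 43.8% above and 40.6% below among 11115 tested genes, and left 20 members uncalled. These tests differ in the level set as well as in length, so their shares are not directly comparable. Against a fixed 3 CPM per kb, 64 members were above and 19 below, against 51.3% and 32.1% of genes. Without replicate 1, the shallow library, the first test gave 81 members above and 8 below, and the second 54 above and 23 below.

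Readers had the highest median per kb of the 5 classes and erasers and writers the lowest. All 7 readers were above 10 CPM and above the median listed gene per kb, with a median of 15.7 CPM per kb. Of the 23 remodellers, 21 were above 10 CPM and none below, and per kb 16 were above and 4 below, with a median of 7.15 CPM per kb. Of the 32 writers, 25 were above 10 CPM and 4 below, and per kb 14 were above and 9 below, with a median of 5.41 CPM per kb. Of the 29 erasers, 23 were above 10 CPM and 4 below, and per kb 13 were above and 9 below, with a median of 5.12 CPM per kb. The 6 ARID proteins were all above 10 CPM, and per kb 3 were above and 2 below. Over all genes tested 43.8% were above the median per kb, so the counts of writers and erasers above it were at the share of all genes. Fewer were below it, 28.1% of writers and 31.0% of erasers, against 40.6% of all genes tested. Against 10 CPM 78.1% of writers and 79.3% of erasers were above, where 58.8% of all genes tested were. Below 10 CPM were 12.5% and 13.8%, against 28.3%.

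The order of readers before remodellers held in each library. The median reader was at 12.0, 15.1 and 15.7 CPM per kb in replicates 1, 2 and 3, and the median remodeller at 6.07, 7.11 and 7.81. The median writer was at 4.60, 5.06 and 5.80 CPM per kb and the median eraser at 4.94, 4.65 and 5.39, so those neighbours changed places between libraries. In total the members held 6154, 7411 and 8180 CPM, an average of 0.725% of the assigned reads. These are descriptions of the lists, with no test between classes.

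**Figure D1:**
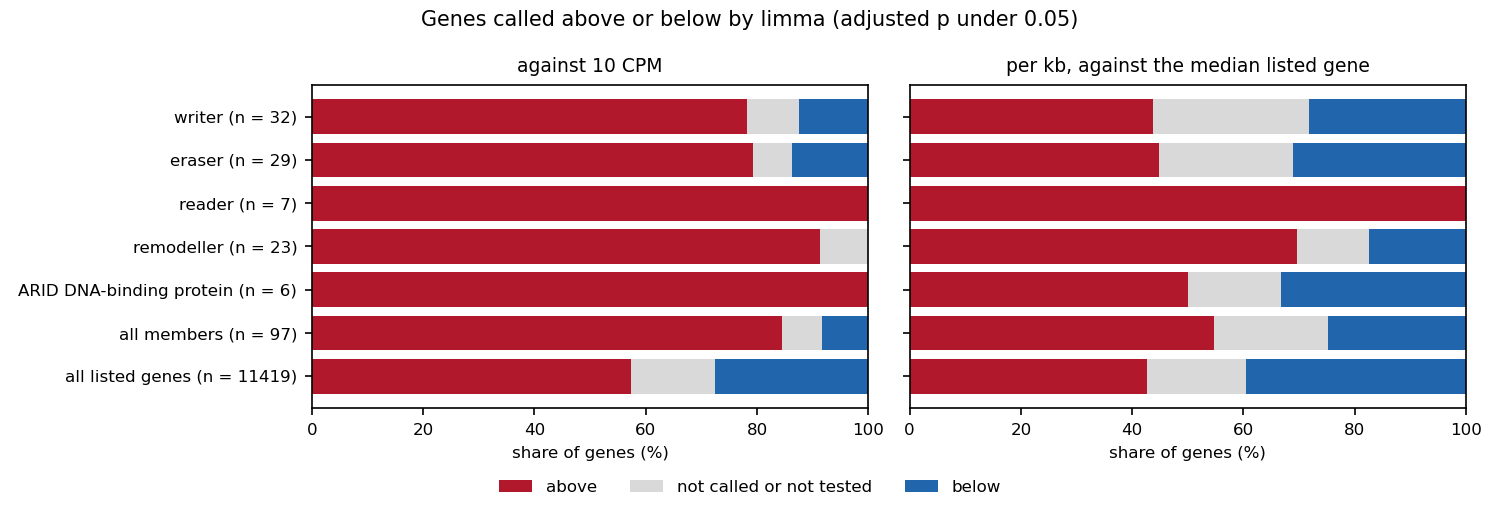
Share of genes (%, horizontal axis) called above, called below, or not called or not tested by limma at an adjusted p under 0.05, for each class, all 97 members and all 11419 listed genes, against 10 CPM (left) and per kb against the median listed gene (right). Readers are wholly above in both panels, and 82 members are above on the left and 53 on the right; shares of all listed genes here include genes that were not tested.

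Among the writers of histone H3 lysine 4 methylation, the mark of active promoters and enhancers, the large Kmt2 and Setd1 enzymes were present at unequal levels. Kmt2d, which places the enhancer monomethyl mark, had 195, 229 and 229 CPM in replicates 1, 2 and 3, or 10.9 ± 0.976 CPM per kb (SD, n = 3). Its relative Kmt2c had 52.4, 80.7 and 79.4 CPM, or 3.49 ± 0.787 CPM per kb, and was not called apart from the median listed gene per kb. Replicate 1 was the lowest library for both. Setd1b, a writer of the promoter trimethyl mark, had 84.9, 145 and 149 CPM, and its counterpart Setd1a had 9.51, 15.6 and 12.3 CPM. The groups of 3 values did not overlap. Setd1a passed in neither direction against 10 CPM, and 51.8% of its exon length is shared with another annotated gene on the same strand, so its level depends on how the authors' counting treated shared reads.

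Kmt2b, a promoter methyltransferase, had 68.3, 87.5 and 120.2 CPM in replicates 1, 2 and 3, lowest in replicate 1 and highest in replicate 3. Kmt2a, the MLL1 enzyme needed for blood stem cells, had 31.3, 64.0 and 53.5 CPM, and per kb it was below the median listed gene (log2 difference -0.51, SE 0.20, adjusted p = 0.0454). That call was lost without replicate 1 (log2 difference -0.29, adjusted p = 0.151) and without replicate 3 (log2 difference -0.53, adjusted p = 0.0801). Setd7, a monomethyltransferase with many non-histone substrates, averaged 5.64 ± 1.02 CPM per kb and was not called per kb (log2 difference 0.34, adjusted p = 0.0502), but was called above without replicate 1 (log2 difference 0.44, adjusted p = 0.0162).

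The shared core of these enzymes, the COMPASS subunits, was well detected. All 10 listed partners were above 10 CPM, against 58.8% of all tested genes. Per kb 8 were above the median, against 43.8%, and the list median was 11.9 CPM per kb. Wdr5, the scaffold that contacts the catalytic subunit, was at 29.8 ± 2.36 CPM per kb, and Dpy30, a small core subunit, at 25.9 ± 12.4 CPM per kb. Dpy30 had 45.4, 25.7 and 17.8 CPM in replicates 1, 2 and 3, highest in replicate 1. The lowest partners were Paxip1 at 4.47 and Ash2l at 3.32 CPM per kb, neither called per kb.

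Both catalytic subunits of Polycomb repressive complex 2, the writer of the repressive methyl mark on histone H3 lysine 27, were above both levels. Ezh2, the form known from dividing cells, had 59.0, 47.9 and 65.8 CPM, and Ezh1, the form known from resting cells, had 53.0, 43.8 and 39.5 CPM. Per kb Ezh2 was at 8.62 ± 1.35 CPM per kb and Ezh1 at 6.11 ± 0.926 CPM per kb, a log2 ratio of 0.46 ± 0.32 (SD over 3 libraries). Ezh2 was the higher in each library, although the per-kb call of Ezh1 was lost without replicate 1 (log2 difference 0.31, adjusted p = 0.0806) and without replicate 2 (log2 difference 0.45, adjusted p = 0.116). Of 9 partner genes, 8 were above 10 CPM and 5 above the median per kb, against 58.8% and 43.8% of all tested genes. The list median was 8.42 CPM per kb. Phf1, an accessory factor that binds methylated lysine 36, led at 29.4 ± 2.71 CPM per kb, followed by Rbbp4, a histone chaperone shared with deacetylase complexes, at 24.2 ± 1.86 CPM per kb. The accessory factors Aebp2 and Phf19 were lowest, at 2.54 and 2.48 CPM per kb.

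Genes of Polycomb repressive complex 1, which ubiquitinates histone H2A and compacts chromatin, stood lower. Of 16 genes in that list 15 were listed, 8 above 10 CPM and 5 below, against 58.8% and 28.3% of all tested genes. Per kb 3 were above and 9 below, against 43.8% and 40.6%, with a median of 1.90 CPM per kb. Phc2, a polyhomeotic subunit, was among the 3 above the median per kb, at 7.75 ± 0.326 CPM per kb. Cbx6 was at 0.477 CPM per kb. Cbx2 had 0, 0.423 and 0 CPM, with no read in replicates 1 and 3.

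Among the writers of histone H4 lysine 20 methylation, Kmt5a and Kmt5c were far above the median listed gene. Kmt5a (GRCm38 gene position chr5:124439930-124462308, forward strand), the monomethyltransferase of that residue, had 197, 222 and 253 CPM, or 42.2 ± 5.27 CPM per kb (log2 difference 3.14, SE 0.09, adjusted p = 1.46e-07). Replicates spanned a narrow range, with replicate 1 lowest. Kmt5c, which extends the mark to the trimethyl form of heterochromatin, had 94.0, 83.3 and 83.5 CPM, or 21.7 ± 1.53 CPM per kb. Its partner enzyme Kmt5b had 36.9, 55.0 and 53.7 CPM, or 3.29 ± 0.685 CPM per kb, so Kmt5c was the higher of that pair in every library. Proliferation markers were present too, with all 7 listed genes above 10 CPM, against 58.8% of all tested genes. They had sums of 1697, 1933 and 2049 CPM, and their part in the level of Kmt5a, Ezh2 or Dnmt1 was not tested.

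Setd2, the enzyme that completes trimethylation of histone H3 lysine 36 in transcribed genes, had 97.1, 119 and 141 CPM, or 11.1 ± 2.02 CPM per kb. Setdb1, the lysine 9 methyltransferase that silences retroelements, had 30.9, 32.5 and 40.3 CPM and was not called per kb. Its relative Setdb2 had 4.27, 9.86 and 9.79 CPM, with replicate 1 well under the others. Kmt2e, which has a SET domain without known methyltransferase activity, averaged 10.5 ± 2.47 CPM per kb, and Setd3, an actin histidine methyltransferase, 8.34 ± 0.812 CPM per kb. Setd5 averaged 4.57 ± 1.27 CPM per kb, close to the median listed gene. That level rests on a merged exon length of 18347 bases, where its longest transcript has 6755. Setd6, a lysine methyltransferase known in human cells for the NF-kappaB subunit RelA, had 1.17, 0.448 and 0.372 CPM (6, 18 and 14 reads), and Setd4 had 0.971, 0.224 and 0.851 CPM (5, 9 and 32 reads), both far below the other SET domain genes.

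Among 13 methyltransferases outside the member names, 9 were above 10 CPM and 3 below, against 58.8% and 28.3% of all tested genes. Per kb 7 were above and 5 below, against 43.8% and 40.6%. Prdm2, a lysine 9 methyltransferase, led at 15.6 ± 4.13 CPM per kb, with Ehmt2, the G9a enzyme of dimethyl lysine 9, at 14.9 ± 1.60 CPM per kb. The lowest were Smyd3 at 0.815 and Suv39h2 at 0.538 CPM per kb, Suv39h2 being known as the testis form of a lysine 9 methyltransferase.

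Lysine acetyltransferases, which loosen chromatin and create bromodomain sites, ranged widely. Kat5, the TIP60 enzyme of the NuA4 complex, had 66.2, 69.3 and 71.2 CPM, or 19.6 ± 0.723 CPM per kb, with 12.1% of its exon length shared with the listed gene Rnaseh2c. Kat7, the HBO1 enzyme of histone H3 lysine 14, had 77.7, 87.9 and 103 CPM, or 16.2 ± 2.32 CPM per kb. Kat6a, the MOZ enzyme needed for blood stem cells, had 86.4, 106 and 109 CPM. All 3 were above both levels. Kat6b, the MORF relative, had 10.7, 24.0 and 19.2 CPM and was below the median per kb (log2 difference -1.65, SE 0.20, adjusted p = 1.71e-04); its call above 10 CPM was lost without replicate 2 (log2 difference 0.48, adjusted p = 0.231) and without replicate 3 (log2 difference 0.64, adjusted p = 0.0640). Kat8, the MOF enzyme of histone H4 lysine 16, had 17.5, 15.5 and 14.1 CPM, and its call above 10 CPM (log2 difference 0.60) was lost without replicate 2 (log2 difference 0.60, adjusted p = 0.0977), with no smaller difference.

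Of the SAGA complex enzymes, Kat2b had 22.3, 22.9 and 33.4 CPM, or 5.39 ± 1.28 CPM per kb, and Kat2a had 12.0, 7.72 and 17.4 CPM, or 3.56 ± 1.39 CPM per kb, lowest in replicate 2 and highest in replicate 3. Kat2a was called in neither test. Of 16 partner genes and acetyltransferases outside the Kat names, 13 were above 10 CPM and 3 below, against 58.8% and 28.3% of all tested genes. Their median was 5.57 CPM per kb. Msl1, the scaffold that recruits Kat8, led at 51.8 ± 8.21 CPM per kb, and Brpf1, the scaffold of the Kat6a complex, was at 18.1 ± 1.5 CPM per kb. Jade3 and Ing4, scaffold and reader subunits of Kat7 complexes, were lowest at 0.519 and 0.103 CPM per kb.

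The maintenance and de novo DNA methyltransferases stood far apart. Dnmt1 (chr9:20907209-20959888, reverse strand), the maintenance methyltransferase that copies CpG methylation after replication, had 231, 273 and 314 CPM, or 37.0 ± 5.62 CPM per kb (log2 difference 2.95, SE 0.10, adjusted p = 2.54e-07). Dnmt3a, the de novo enzyme often mutated in human clonal haematopoiesis, had 21.6, 30.8 and 33.5 CPM, or 1.72 ± 0.376 CPM per kb, below the median listed gene (log2 difference -1.13, SE 0.17, adjusted p = 5.74e-04). Within each library Dnmt1 exceeded Dnmt3a by a log2 ratio of 4.08 ± 0.08. Dnmt3b, the other de novo enzyme, had 1.17, 0.872 and 0.798 CPM (6, 35 and 30 reads), and Dnmt3l, a catalytically inactive cofactor of germ cells, had 3.50, 4.28 and 0 CPM (18, 172 and 0 reads). Dnmt3l was the 1 member with no read in a library, replicate 3.

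Of 7 cofactors and readers of DNA methylation, 6 were above 10 CPM, against 58.8% of all tested genes. But per kb 2 were above and 4 below, against 43.8% and 40.6%. Uhrf1, which brings Dnmt1 to newly copied DNA, was at 31.1 ± 4.14 CPM per kb, near Dnmt1 itself, and Mbd1, a methyl-CpG binding repressor, at 7.39 ± 1.05 CPM per kb. Mbd4, a thymine glycosylase, was lowest at 1.64 CPM per kb, below the median.

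**Figure D2:**
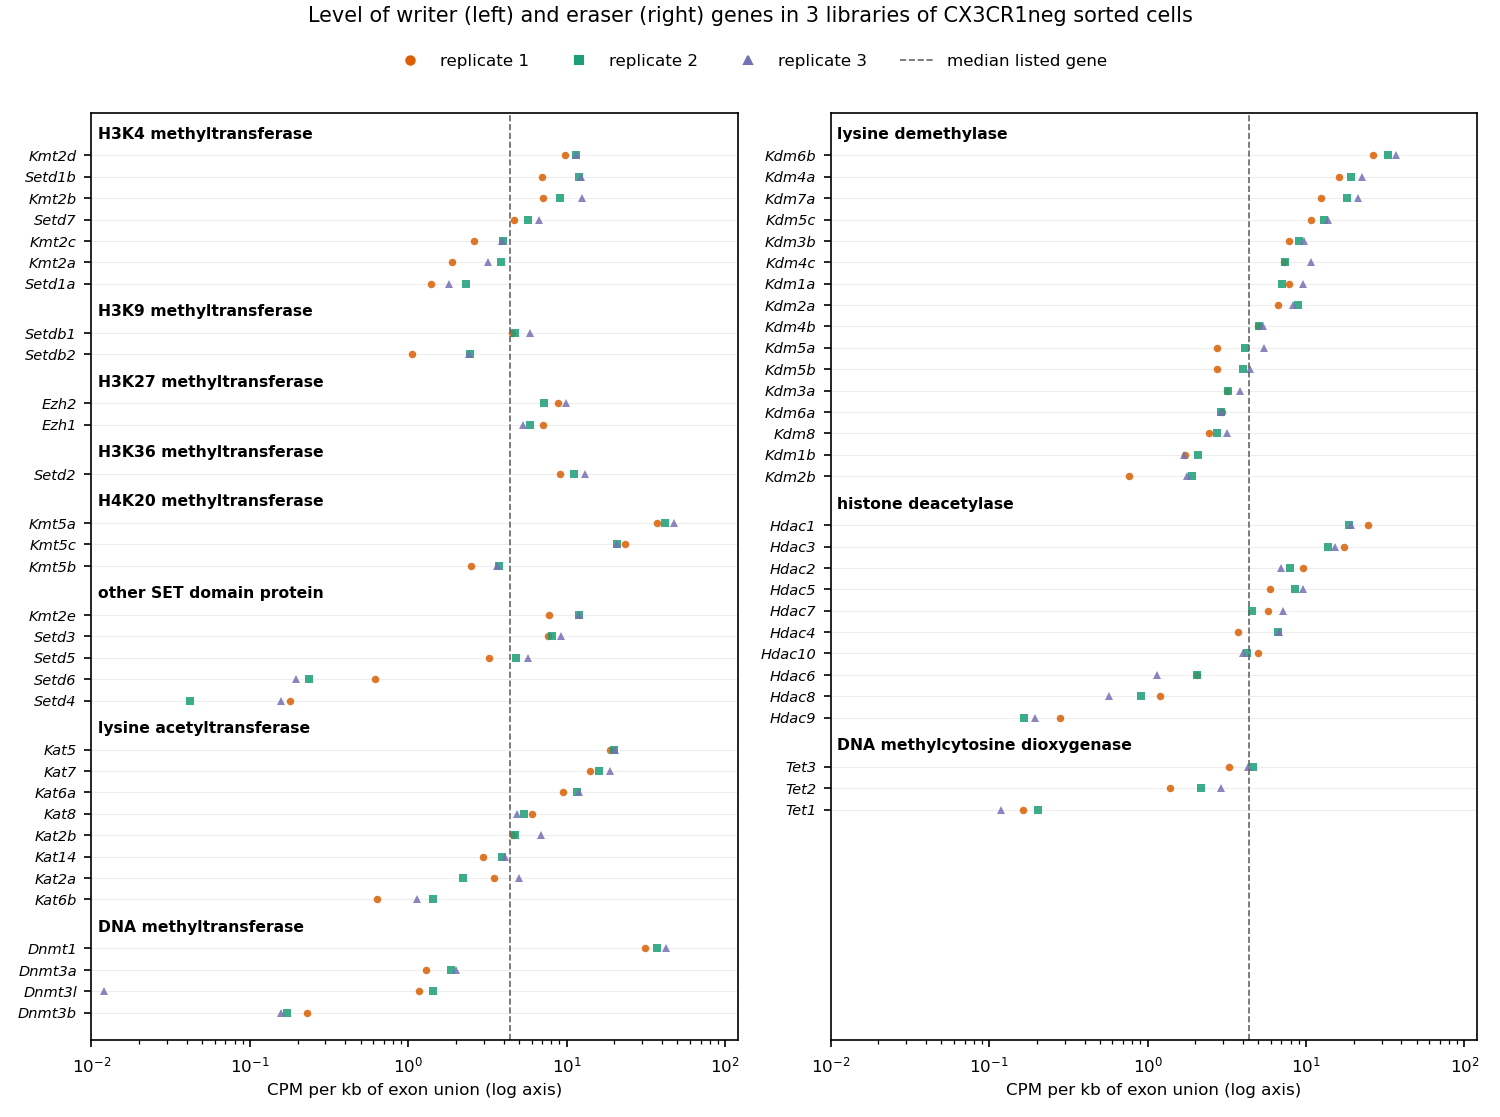
CPM per kb of exon union (log axis) of the 32 writer genes (left) and 29 eraser genes (right) in replicates 1, 2 and 3, by subclass and in falling order of the mean, with the median listed gene (4.37 CPM per kb) as a dashed line. Kmt5a, Dnmt1 and Kdm6b lie far to the right of that line and Setd4, Tet1, Dnmt3b and Hdac9 far to the left; the 0 of Dnmt3l in replicate 3 is drawn at the left edge.

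Among the erasers of histone methylation Kdm6b stood first. Kdm6b (chr11:69398508-69413675, reverse strand), the JMJD3 demethylase of histone H3 lysine 27 known from inflammatory induction in macrophages, had 184, 228 and 258 CPM, or 32.1 ± 5.36 CPM per kb (log2 difference 2.75, SE 0.10, adjusted p = 4.80e-07). Its X-linked relative Kdm6a, the UTX enzyme, had 24.7, 24.5 and 24.2 CPM, or 2.92 ± 0.0263 CPM per kb, nearly the same in all 3 libraries. The log2 ratio of Kdm6a to Kdm6b was -3.24 ± 0.25, with Kdm6b higher in every library. The call of Kdm6a below the median per kb was lost without replicate 2 (log2 difference -0.51, adjusted p = 0.102) and without replicate 3 (log2 difference -0.44, adjusted p = 0.0880).

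Kdm4a, an eraser of methylated lysines 9 and 36, had 93.4, 111 and 131 CPM, or 19.3 ± 3.25 CPM per kb, and Kdm7a, an eraser of lysines 9 and 27, had 126, 183 and 213 CPM, or 17.3 ± 4.40 CPM per kb. Replicate 1 was lowest for both. Kdm5c, an X-linked eraser of lysine 4 methylation, had 76.7, 91.8 and 97.4 CPM, or 12.5 ± 1.5 CPM per kb, above its relative Kdm5a at 4.08 ± 1.33 CPM per kb. Kdm1a, the LSD1 enzyme of the CoREST complex that acts on lysine 4, had 40.6, 36.5 and 49.9 CPM, or 8.17 ± 1.33 CPM per kb, and Kdm1b, the LSD2 enzyme, had 9.51, 11.4 and 9.28 CPM and was called in neither direction against 10 CPM. Of the pairs with a shared substrate, Kdm2a over Kdm2b had a log2 ratio of 2.14 ± 0.30 and Kdm4a over Kdm4b 1.81 ± 0.19. Another such pair, Kdm3a over Kdm3b, had -1.25 ± 0.09. The exons of Kdm3b overlap another annotated gene on the opposite strand over 24.6% of their length.

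Over the 16 lysine demethylases, 14 were above 10 CPM, against 58.8% of all tested genes. Per kb 8 were above and 4 below, against 43.8% and 40.6%, with a median of 6.53 CPM per kb. Kdm8, a JmjC-domain hydroxylase, was the sole demethylase gene called below 10 CPM, with 5.83, 6.58 and 7.58 CPM (log2 difference -0.53, SE 0.24, adjusted p = 0.0435). That call was lost without replicate 1, 2 or 3, at log2 differences of -0.45, -0.52 and -0.61 and adjusted p = 0.116, 0.183 and 0.0647. Kdm2b, a CpG island binding protein of a PRC1 variant, had 8.35, 20.7 and 19.3 CPM, and its call above 10 CPM was lost without replicate 2 (log2 difference 0.32, adjusted p = 0.469) and without replicate 3 (log2 difference 0.37, adjusted p = 0.280). Replicate 1 was the low library for Kdm2b, at 43 reads.

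Hdac1, Hdac3 and Hdac2, class I deacetylases that are catalytic subunits of co-repressor complexes, had the highest mean levels per kb of the 10 deacetylases, although Hdac5 was above Hdac2 in replicates 2 and 3. Hdac1, of the Sin3, NuRD and CoREST complexes, had 84.9, 63.9 and 66.3 CPM, or 20.8 ± 3.32 CPM per kb, and Hdac3, of the NCoR complex, had 70.9, 55.8 and 61.4 CPM, or 15.5 ± 1.88 CPM per kb. Hdac2, which shares its complexes with Hdac1, had 43.1, 35.6 and 31.0 CPM, or 8.17 ± 1.37 CPM per kb. For all 3 genes replicate 1 was the highest library, the opposite of most members. Hdac1 over Hdac2 had a log2 ratio of 1.298 ± 0.12. Hdac8, the class I enzyme outside those complexes, had 5.83, 4.41 and 2.77 CPM and was below 10 CPM (log2 difference -1.09, SE 0.27, adjusted p = 8.87e-04).

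Class IIa deacetylases shuttle between nucleus and cytoplasm under kinase control. Hdac5 had 51.8, 75.2 and 84.4 CPM, or 8.03 ± 1.91 CPM per kb, Hdac7 5.81 ± 1.28 CPM per kb and Hdac4 5.68 ± 1.72 CPM per kb. Hdac9 had 4.08, 2.42 and 2.85 CPM (21, 97 and 107 reads). Hdac7 exceeded it by a log2 ratio of 3.13 ± 0.29, with 0.5 CPM per kb added to each gene. The per-kb call of Hdac7 above the median was lost without each library in turn (log2 differences 0.35, 0.50 and 0.28 and adjusted p = 0.0695, 0.0645 and 0.214 without replicates 1, 2 and 3), and Hdac4, not called with all libraries, was called above without replicate 1 (log2 difference 0.55, adjusted p = 0.00405). The exons of Hdac4 overlap another annotated gene over 22.4% of their length, and Hdac4 lay below Hdac5 per kb but above it in CPM.

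The partners of these deacetylases had the highest median of the 10 partner lists. Of 17 co-repressor genes, 16 were above 10 CPM and 15 above the median per kb, against 58.8% and 43.8% of all tested genes. Their median was 14.3 CPM per kb. Mbd2, the methyl-CpG binding subunit of NuRD, was at 50.7 ± 9.25 CPM per kb, and Gps2, a subunit of the NCoR complex, at 45.6 ± 1.31 CPM per kb. Mta3, a NuRD subunit, was the exception at 1.99 ± 0.155 CPM per kb, with 9.71, 11.4 and 10.6 CPM.

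The TET dioxygenases, which oxidise methylcytosine, were not high per kb. Tet3 had 54.2, 77.6 and 72.3 CPM, or 4.07 ± 0.736 CPM per kb, and Tet2, often mutated in human clonal haematopoiesis, had 23.3, 36.5 and 49.0 CPM, or 2.15 ± 0.763 CPM per kb. Replicate 1 was lowest for both, and Tet3 was higher than Tet2 per kb in every library, by a log2 ratio of Tet2 to Tet3 of -0.82 ± 0.27. Tet1, known from pluripotent and germ cells, had 2.52, 3.16 and 1.83 CPM and was below 10 CPM (log2 difference -1.67, SE 0.29, adjusted p = 1.84e-05).

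All 7 readers with a bromodomain, the fold that binds acetylated lysine, were above both levels. Brd2, of the BET family with tandem bromodomains, had 200.0, 217 and 217 CPM, or 27.02 ± 1.27 CPM per kb (log2 difference 2.52, SE 0.09, adjusted p = 4.01e-07). Its 3 libraries lay within a narrow range. Brd3, of the same family, had 124, 146 and 137 CPM, or 18.5 ± 1.54 CPM per kb, lowest in replicate 1.

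Brd7, a subunit of the PBAF remodelling complex, had 85.4, 79.3 and 82.2 CPM, or 15.7 ± 0.587 CPM per kb. Brd8, a NuA4 subunit, was at 6.80 ± 1.45 CPM per kb and Brd1, a scaffold of acetyltransferase complexes, at 6.46 ± 1.06 CPM per kb. Those lowest readers kept a level above the median listed gene per kb, but their calls were lost without replicate 2 (adjusted p = 0.0538 for Brd8 and 0.0850 for Brd1).

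All 11 SWI/SNF subunits, which form the BAF and PBAF complexes that open enhancers and promoters, were above 10 CPM, against 58.8% of all tested genes. Per kb 9 were above the median listed gene and none below, against 43.8% and 40.6%, with a median of 7.33 CPM per kb. Smarcd2 (chr11:106263179-106272972, reverse strand), the BAF60b subunit needed in mice and humans to form neutrophil granules, had 177, 173 and 194 CPM, or 50.5 ± 3.07 CPM per kb (log2 difference 3.41, SE 0.08, adjusted p = 7.76e-08). Its alternative subunit Smarcd1, BAF60a, had 29.3, 20.4 and 17.2 CPM, or 5.54 ± 1.56 CPM per kb, and the log2 ratio of Smarcd1 to Smarcd2 was -3.11 ± 0.42. Smarcd2 was thus higher in every library, and Smarcd1 was highest in replicate 1. Smarcd1 was called above the median per kb without replicate 3 (log2 difference 0.50, adjusted p = 0.0353) and not with all libraries.

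Smarca4, the BRG1 ATPase, had 163, 169 and 198 CPM, or 27.3 ± 2.94 CPM per kb, and the alternative ATPase Smarca2, BRM, had 69.9, 87.1 and 92.8 CPM, or 5.84 ± 0.836 CPM per kb. Their log2 ratio was 2.14 ± 0.12. Smarcc2, a core scaffold, had 148, 177 and 205 CPM, or 31.9 ± 5.16 CPM per kb, and its paralogue Smarcc1 had 47.6, 57.5 and 67.1 CPM, or 7.33 ± 1.25 CPM per kb. Their log2 ratio, Smarcc1 over Smarcc2, was -2.05 ± 0.00158, the smallest SD of the 28 pairs. Arid1a, the DNA-binding subunit often lost in human cancers, had 180.2, 228 and 278 CPM, or 19.9 ± 4.27 CPM per kb, and Arid1b, which takes its place in other BAF complexes, had 45.0, 90.04 and 75.9 CPM, or 5.58 ± 1.83 CPM per kb. Arid1b was lowest in replicate 1 and was called above the median per kb without it (adjusted p = 0.00760), but not with all libraries (adjusted p = 0.187). The call of Smarca2 was lost without replicate 2 (log2 difference 0.34, adjusted p = 0.205) and without replicate 3 (log2 difference 0.36, adjusted p = 0.102).

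Of 12 further SWI/SNF subunits, 10 were listed, 9 of them above 10 CPM and 1 below, against 58.8% and 28.3% of all tested genes. Per kb 6 were above and 1 below, against 43.8% and 40.6%, with a median of 6.81 CPM per kb. Bcl7b was at 13.5 ± 0.933 CPM per kb and Dpf2, a reader of acylated histone H3, at 10.6 ± 0.566 CPM per kb. The relatives of Bcl7b were lower, with Bcl7c at 4.24 ± 0.777 CPM per kb and Bcl7a at 0.574 ± 0.132 CPM per kb. Bcl7a had 5.63, 6.60 and 4.12 CPM, the 1 subunit below both levels.

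CHD remodellers ranged from 0.75 to 44.8 CPM per kb. Chd4 (chr6:125095981-125130591, forward strand), the NuRD ATPase, had 317, 343 and 418 CPM, or 44.8 ± 6.53 CPM per kb (log2 difference 3.23, SE 0.09, adjusted p = 1.40e-07). Chd3, its alternative in NuRD, had 12.0, 6.20 and 3.19 CPM, or 0.846 ± 0.533 CPM per kb, and the log2 ratio of Chd4 to Chd3 was 5.14 ± 0.76, the largest among the pairs. Chd3 was highest in replicate 1 and lowest in replicate 3, so it passed in neither direction against 10 CPM, but it was called below without replicate 1 (log2 difference -1.002, adjusted p = 0.00144).

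Chd7, a remodeller of enhancers, had 91.8, 143 and 142 CPM, or 9.10 ± 2.11 CPM per kb, Chd1, which follows elongating polymerase and binds methylated lysine 4, 8.30 ± 2.19 CPM per kb, and Chd8, a relative of Chd7, 7.31 ± 1.79 CPM per kb. All 3 were above both levels. Chd2 was at 3.68 ± 0.671 CPM per kb, not called per kb, and 18.4% of its exon length overlaps the listed gene 1810026B05Rik on the same strand. Chd6 had 10.1, 18.1 and 28.9 CPM and Chd9 12.6, 22.0 and 17.5 CPM, at 0.997 and 0.75 CPM per kb. Both were above 10 CPM and below the median per kb, with exon lengths of 19.1 and 23.1 kb. Their calls above 10 CPM were lost without replicate 2 (adjusted p = 0.177 for Chd6 and 0.148 for Chd9) and, for Chd6, without replicate 3 (log2 difference 0.40, adjusted p = 0.178).

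Of the other SNF2 ATPases, Smarca5, the motor of ISWI complexes, had 39.8, 59.5 and 85.3 CPM, or 7.91 ± 2.93 CPM per kb, lowest in replicate 1 and highest in replicate 3. Smarcal1, an annealing helicase at stalled forks, averaged 6.48 ± 1.31 CPM per kb, and its per-kb call was lost without replicate 2 (log2 difference 0.50, adjusted p = 0.0756) and without replicate 3 (log2 difference 0.43, adjusted p = 0.0527). Smarcad1, a remodeller of silenced and damaged chromatin, had 9.90, 12.0 and 12.5 CPM, or 0.862 ± 0.104 CPM per kb, and was below the median per kb.

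The highest mean per kb of all 97 members was that of an ARID protein. Arid3a (chr10:79927043-79955018, forward strand), known as the B cell regulator Bright, had 237, 326 and 319 CPM, or 52.9 ± 8.90 CPM per kb (log2 difference 3.46, SE 0.11, adjusted p = 2.05e-07). In replicate 1 Smarcd2 was higher, at 49.3 CPM per kb against 42.6 for Arid3a, and with the longest transcript as length Kmt5a and Smarcd2 were higher (log2 differences 3.68 and 3.38, against 3.10 for Arid3a). Of the 6 B lymphoid markers, all listed, 4 were below 10 CPM and none above, against 28.3% and 58.8% of all tested genes. Their sums were 39.0, 20.4 and 28.0 CPM, and their bearing on the level of Arid3a was not tested. Arid4a, a Sin3 complex subunit, had 62.5, 73.0 and 78.4 CPM, or 12.7 ± 1.44 CPM per kb, and its relative Arid4b had 31.3, 24.6 and 40.1 CPM, or 1.89 ± 0.458 CPM per kb. Arid3b was at 7.39 ± 1.03 CPM per kb, Arid5a, an mRNA-binding protein known for stabilising interleukin 6 transcripts, at 4.44 ± 1.01 CPM per kb and Arid5b, a cofactor of the demethylase Phf2, at 2.50 ± 0.947 CPM per kb. Both Arid4b and Arid5b were below the median per kb while above 10 CPM.

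**Figure D3:**
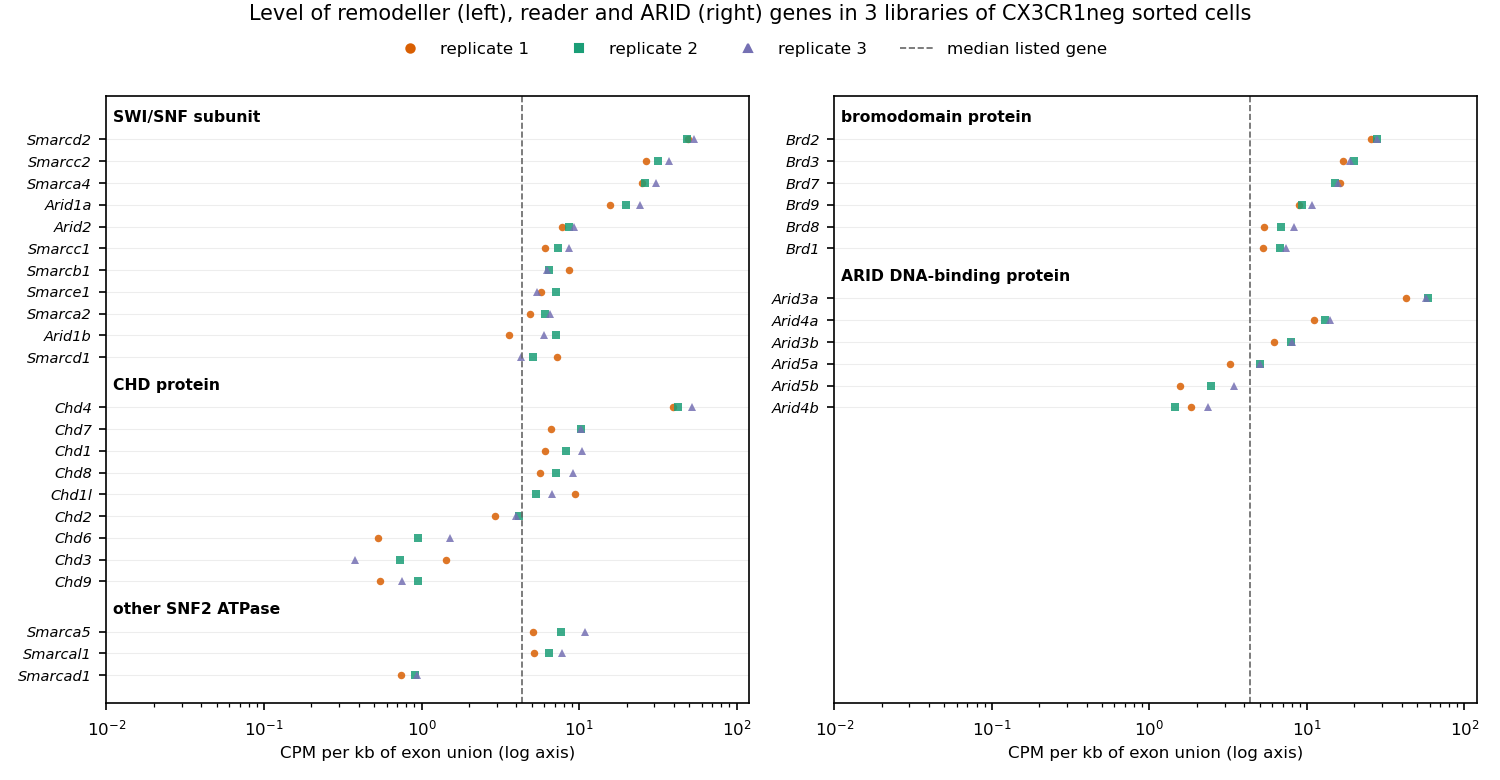
CPM per kb of exon union (log axis) of the 23 remodeller genes (left), 6 of the 7 reader genes and 6 ARID genes (right) in replicates 1, 2 and 3, by subclass, with the median listed gene (4.37 CPM per kb) as a dashed line. The bromodomain genes drawn lie to the right of the line in every library, Smarcd2, Chd4 and Arid3a lead their groups, and Chd6, Chd3, Chd9 and Smarcad1 lie far to the left.

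Related genes that can replace each other in a complex or act on the same residue were compared within each library, where depth is shared. In each of the 28 pairs reported here, the same gene was higher in all 3 libraries. With 3 libraries an exact two-sided sign-flip permutation test cannot give a p below 0.25, so none of these pairs can be called by that test, and each ratio is given with its SD. The ratios add 0.5 CPM per kb to each gene, which understates those with a very low gene, such as Hdac9 at 0.212 or Tet1 at 0.162 CPM per kb. On that log2 scale the largest were Chd4 over Chd3 at 5.14 ± 0.76, Dnmt1 over Dnmt3a at 4.08 ± 0.08 and Kdm6a over Kdm6b at -3.24 ± 0.25. Next came Hdac7 over Hdac9 at 3.13 ± 0.29 and Smarcd1 over Smarcd2 at -3.11 ± 0.42, and this order may depend on the pseudocount. Acetyltransferases and methyltransferases also had unequal pairs, with Kat6a over Kat6b at 2.90 ± 0.24, Kmt5b over Kmt5c at -2.57 ± 0.37 and Setd1a over Setd1b at -2.21 ± 0.25. The closest of these pairs were Chd8 over Chd7 at -0.30 ± 0.19, Ezh2 over Ezh1 at 0.46 ± 0.32 and Hdac4 over Hdac5 at -0.48 ± 0.13. The direction of Chd8 and Chd7 reversed with the length of the longest transcript (0.20), and that of Hdac4 and Hdac5 without length correction (0.33). Another 18 of the 28 ratios moved by more than their SD over libraries with the longest transcript, 19 without length correction and 7 with a pseudocount of 0.1. The sizes of most ratios thus depended on the length used, and those of 7 on the pseudocount.

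**Figure D4:**
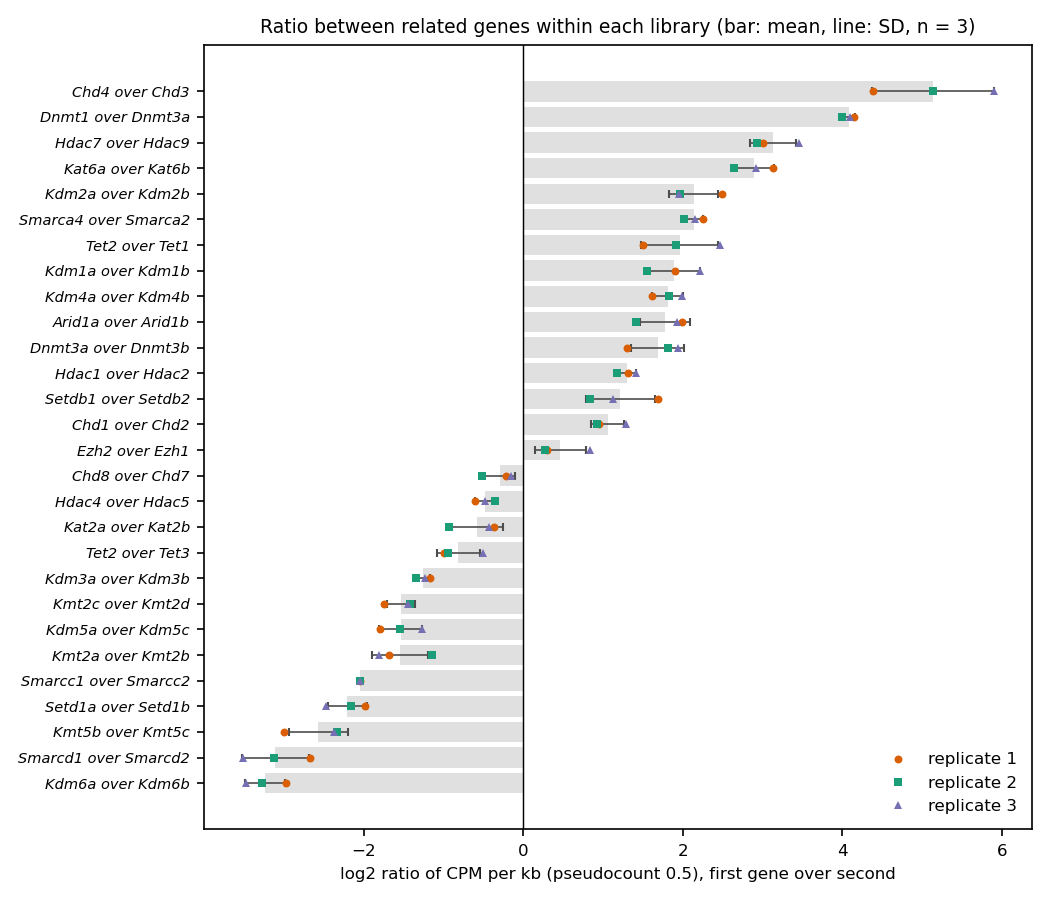
The log2 ratio of CPM per kb (pseudocount 0.5) of the first gene over the second for 28 pairs of related members, with points for replicates 1, 2 and 3, bars for the mean and lines for the SD (n = 3). All 3 points of each pair lie on 1 side of 0, from Chd4 over Chd3 at the top to Kdm6a over Kdm6b at the bottom.

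Among members of at least 10 CPM, replicate 1 was most often the lowest library and replicate 3 most often the highest. Among the 87 members with a mean of at least 10 CPM, the median ratio of the highest to the lowest library was 1.40, against 1.35 over 7283 listed genes of that level. The ratio was over 2 for 8 members (9.20%), against 6.51% of those genes. The 5 widest were Chd6 at 2.87, Kdm2b at 2.48, Kat2a at 2.25, Kat6b at 2.25 and Arid5b at 2.21, and replicate 1 was the lowest library in all of them but Kat2a.

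Replicate 1 was the lowest library for 66 of those 87 members (75.9%), against 47.0% of the genes of that level. Its exact Poisson 95% interval, which covers counting error only, lay below those of both other libraries for 50 members (57.5%), against 22.8% of genes, and above both for 6 members (6.90%), against 11.4%. The intervals of replicates 1 and 2 were apart for 64 members (73.6%), against 46.8% of genes. Those of replicates 1 and 3 were apart for 72 (82.8%), against 62%, and those of replicates 2 and 3 for 57 (65.5%), against 70.1%. Replicate 3 was the highest library for 55 of the 87 members (63.2%), against 53.3% of genes. Its median log2 difference from the mean of the others was 0.25 for members and 0.14 for genes.

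Across genes of at least 10 CPM, the differences of replicates 1 and 3 from the other libraries went with gene length, in opposite directions. Across members the difference of replicate 2 also went with length, in the direction of replicate 3. The median log2 difference of replicate 1 from the mean of the others was -0.36 for members and -0.10 for genes of that level. Across the 87 members its Pearson correlation with log2 exon length was -0.68 and its Spearman correlation -0.69, and across 7282 genes -0.39 and -0.42. For replicate 3 the Pearson and Spearman correlations were 0.38 and 0.34 across members and 0.42 and 0.42 across genes, and for replicate 2 they were 0.49 and 0.52 across members and 0.028 and 0.019 across genes. Genes are not independent replicates and all points share the same libraries, so these are descriptions. Each difference has the other libraries as its comparator, so the trends of the 3 libraries are not independent of each other. For the 34 members over 10 kb the median in replicate 1 was -0.60, against -0.34 for 789 listed genes of that length, and in replicate 3 it was 0.31, against 0.32 for those genes. Between 6 and 10 kb the median in replicate 1 was -0.26 for 27 members and -0.24 for 1780 genes, and between 3 and 6 kb -0.08 for 25 members and -0.08 for 2907 genes. The 1 member under 3 kb was at 0.23, and the 1806 genes of that length at 0.13.

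Other lists moved with replicate 1 as well. The 6 basophil and mast cell markers summed to 1478, 735 and 810 CPM in replicates 1, 2 and 3, higher in replicate 1. The 6 erythroid markers summed to 931, 515 and 478 CPM, also higher in replicate 1. In each list 4 genes were above 10 CPM, against 58.8% of all tested genes, and none was at 0 in all libraries. The summed level of the proliferation markers was lowest in replicate 1, as given above. Mki67, Top2a, Rrm2 and, by little, Ccnb1 were lowest there, and Mcm5, Pcna and Birc5 highest there. The part of these markers, of depth or of RNA quality in the lower member levels of replicate 1 was not tested.

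**Figure D5:**
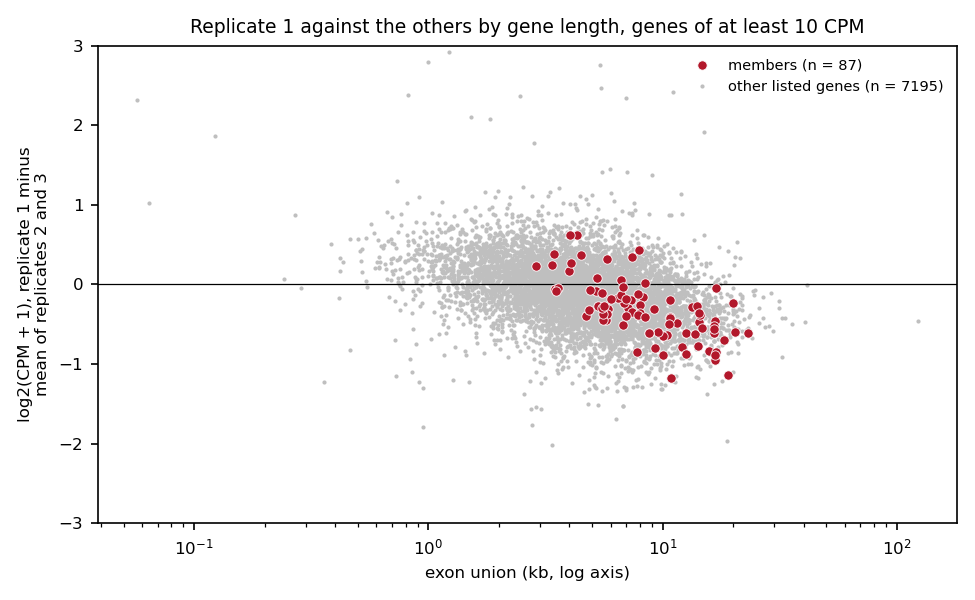
Difference on the log2(CPM + 1) scale between replicate 1 and the mean of replicates 2 and 3 (vertical axis) against exon length in kb (log axis), for 87 members (red) and 7195 other listed genes (grey) of at least 10 CPM; 6 genes outside ± 3 are not drawn. The members lie mostly below 0, and lower for longer genes.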

How the data were processed

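RNA-seq covered 3 libraries of 1 sorted population. The deposited values were CPM per gene and library, computed by the authors with FastQC, STAR, featureCounts and edgeR and the builds mm10 and GRCh38, per the submitters' processing notes. Tool versions, annotation, strand setting, gene filter and what each build served for are not given in the sources used here, so reads of overlapping or antisense genes cannot be told apart. Of 11463 entries a table, 44 were repeats with identical values and were dropped. In 100% of values the CPM was a whole number of reads to within 0.01 reads, and those reads were recovered. Intervals and floors cover counting error only.

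Genes with at least 10 reads over the libraries were tested with limma 3.58.1 in R 4.3.3 with a variance trend. On simulated data with known folds the test against 10 CPM called 86% of genes at a fold of 2 and 96% at 0.5. It called 6% of unchanged genes, and the test per kb called 86%, 94% and 4%. Those data had 50 genes at each fold and 200 unchanged, a spread common to all genes and no trend with gene length. The rates may differ for the real libraries. Alternatives used edgeR 4.0.16, DESeq2 1.42.0, other pseudocounts, levels, lengths and scalings, and each library left out. Exon lengths and gene coordinates came from GENCODE M21 on GRCm38 (99.9% of listed genes), promoters from RefSeq on GRCm38.p6. Members, roles, partner and marker lists, and tests were chosen with earlier results of these data known. Named genes were, in each subclass, up to 4 members of highest and 2 of lowest mean CPM per kb, every member below 10 CPM, both genes of each pair, the 5 widest over libraries, the 2 highest and 2 lowest of each partner list, and the 4 gate genes. Of the genes this rule takes, 4 are not reported here by name, nor the pairs they belong to. The text names 86 members, and the rest enter counts.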

Additional observations from a re-analysis of the deposited data

How the results depend on the processing

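Pseudocounts of 0.1 and 0.5, TMM scaling and DESeq2 size factors left 82 members above and 8 below 10 CPM. DESeq2 on recovered reads gave 82 above and 7 below, no filter 79 and 8, and moderation without a trend 81 and 8. Changing the level moved the number below, to 5 at 5 CPM, 15 at 20 CPM and 19 at 3 CPM per kb. Leaving out a library gave 75 to 81 members above and 7 to 8 below 10 CPM. Per kb it gave 46 to 54 above and 22 to 23 below. The directions of the 28 pairs could not change there, because each was the same in every library. No paired analysis was possible because there is 1 group.

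Most results that changed direction did so when the level was set to 5 CPM, 20 CPM or 3 CPM per kb. The last of these also takes gene length into account. The log2 differences are given by setting. At 5 CPM they were Bcl7a 0.086, Mbd4 0.59, Kdm8 0.35 and Srcap 0.32. At 20 CPM they were Kat2a -0.72, Kat6b -0.22, Phf19 -0.67, Kdm2b -0.39, Smarcad1 -0.76, Kat8 -0.34, Kdm1b -0.93, Setd1a -0.66, Mta3 -0.86, Chd9 -0.23 and Chd6 -0.18. At 3 CPM per kb they were Kmt2a -0.043, Arid5b -0.23, Dnmt3a -0.57, Kat6b -0.97, Kdm2b -0.72, Smarcad1 -1.11, Aebp2 -0.18, Kdm6a -0.030, Kdm1b -0.50, Arid4b -0.48, Tet2 -0.37, Setd1a -0.51, Mta3 -0.42, Chd9 -1.20 and Chd6 -1.03. With the longest transcript as length they were Actr8 0.24, Ash2l 0.40, Kmt5b 0.38 and the ratio of Chd8 to Chd7 0.20. Without length correction the ratio of Hdac4 to Hdac5 was 0.33. The cause of these changes was not tested. With the longest transcript, another 6 of the named members gained a per-kb call and 2 lost one. The depth of replicate 1 limits genes of a few CPM most, where its values rest on few reads.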

Other observations

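The INO80 family of remodellers, which move nucleosomes or exchange histone H2A variants, had 9 of 9 genes listed. Of these, 7 were above 10 CPM and 1 below, against 58.8% and 28.3% of all tested genes. Per kb 4 were above and 2 below, against 43.8% and 40.6%, with a median of 5.44 CPM per kb. Znhit1, a small subunit of the SRCAP complex, had 141, 121 and 104 CPM in replicates 1, 2 and 3, or 65.7 ± 9.79 CPM per kb (SD, n = 3), a higher mean than that of any member. Ruvbl2, an ATPase shared with the NuA4 complex, was at 21.8 ± 3.35 CPM per kb. Actr8, an actin-related subunit, was at 3.13 ± 0.301 CPM per kb, and Srcap, the ATPase of the complex that holds Znhit1, at 0.416 ± 0.0978 CPM per kb, with 8.35, 5.78 and 5.58 CPM. Znhit1 was thus the highest and Srcap the lowest of the list.

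Sirtuins, the NAD-dependent deacylases, numbered 7, all listed, with a median of 2.74 CPM per kb. Of them 3 were above 10 CPM and 3 below, against 58.8% and 28.3% of all tested genes. The 3 below were Sirt3, Sirt4 and Sirt5, which are the mitochondrial ones; Sirt3 is named after its value was seen. Sirt7, a nucleolar deacetylase, had 168, 142 and 144 CPM, or 29.4 ± 2.84 CPM per kb, and Sirt2, a tubulin and histone deacetylase, 14.8 ± 2.91 CPM per kb. Sirt4 and Sirt5 were lowest, at 0.496 ± 0.448 CPM per kb and 0.426 ± 0.132 CPM per kb. Sirt4 had 2.33, 0.199 and 1.04 CPM, most in replicate 1.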
